A study of Mus musculus with 22 samples.

Results

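The genes described here encode 9 proteins that the liver secretes into the blood to carry small molecules: albumin (Alb), transthyretin (Ttr), retinol-binding protein 4 (Rbp4), corticosteroid-binding globulin (Serpina6), thyroxine-binding globulin (Serpina7), vitamin D-binding protein (Gc), fetuin-A (Ahsg), fetuin-B (Fetub) and afamin (Afm). They were chosen by name, as carriers of the albumin, serpin, transthyretin, lipocalin and fetuin kinds, and all 9 of 9 were among the 15448 genes of the deposited table. Polyadenylated RNA was sequenced from the livers of 22 wild-type male mice of the CD2F1 strain. C26 is a mouse colon carcinoma line whose growth in mice is used as a model of cancer cachexia, the wasting that accompanies some tumours. The control group (CT, n = 6) had no tumour, was sham-injected and has "vehicle" as its labelled treatment. The C26 group (n = 8) received C26 cells and is described as otherwise untreated. The C26-TDCA group (n = 8) received C26 cells and, every day, an injection into the peritoneum of taurodeoxycholic acid (TDCA, 10 mg/kg), a taurine-conjugated secondary bile acid. No vehicle injection is named for the C26 group, so daily injection and TDCA cannot be told apart in the comparison of the tumour groups. The age of the mice is not given in the sources used here.

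Hepatocytes make most of the carriers of plasma. Albumin binds fatty acids, bilirubin, bile acids and many drugs and sets much of the osmotic pressure of blood, and its relatives afamin and vitamin D-binding protein carry vitamin E and Wnt proteins, and vitamin D metabolites and actin. Transthyretin and thyroxine-binding globulin carry thyroid hormone, retinol-binding protein 4 carries vitamin A bound to transthyretin, corticosteroid-binding globulin carries glucocorticoids, and the fetuins bind calcium phosphate (fetuin-A) or inhibit the protease ovastacin (fetuin-B). Albumin, transthyretin and retinol-binding protein 4 are among the textbook negative acute phase proteins, whose plasma levels fall in inflammation. These are examples and not a full list. The other carriers were not sorted by this class, and whether the direction of change followed it was not tested.

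Promoter sequences are shown for a carrier that fell in the tumour groups (Alb) and for 3 that rose (Serpina7, Ahsg and Fetub), because these genes moved in opposite directions. Each run holds 300 bases of RefSeq sequence on GRCm38.p6, from 250 before the annotated start to 50 after it, written 5′ to 3′ on the strand of the gene. Capitals mark the HNF1 half-site GTTAAT, the C/EBP motif TTGCNNAA, the STAT motif TTCNNNGAA and the TATA box TATAAA, found on either strand. Alb lies at chr5:90460620-90460919 on the plus strand, Serpina7 at chrX:139085187-139085486 on the minus strand (the start at the higher coordinate of 2), Ahsg at chr16:22891765-22892064 on the plus strand, and Fetub at chr16:22918132-22918431 on the plus strand (the start at the lower coordinate of 2).
Alb: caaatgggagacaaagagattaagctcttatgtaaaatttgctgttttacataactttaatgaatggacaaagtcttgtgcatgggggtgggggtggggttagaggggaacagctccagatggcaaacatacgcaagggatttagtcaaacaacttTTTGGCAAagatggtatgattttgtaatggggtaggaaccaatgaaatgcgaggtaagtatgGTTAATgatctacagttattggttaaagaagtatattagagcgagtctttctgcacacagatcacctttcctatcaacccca
Serpina7: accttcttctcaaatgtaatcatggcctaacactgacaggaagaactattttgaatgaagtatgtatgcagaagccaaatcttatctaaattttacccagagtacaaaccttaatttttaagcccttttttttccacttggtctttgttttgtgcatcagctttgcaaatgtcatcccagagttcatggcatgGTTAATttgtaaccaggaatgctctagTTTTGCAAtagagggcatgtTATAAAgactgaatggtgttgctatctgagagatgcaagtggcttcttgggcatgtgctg
Ahsg: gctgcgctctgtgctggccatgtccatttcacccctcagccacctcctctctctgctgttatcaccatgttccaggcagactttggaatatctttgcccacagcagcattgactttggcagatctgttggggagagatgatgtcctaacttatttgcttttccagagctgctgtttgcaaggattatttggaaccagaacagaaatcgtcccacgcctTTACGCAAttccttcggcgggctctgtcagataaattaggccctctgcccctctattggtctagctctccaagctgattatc
Fetub: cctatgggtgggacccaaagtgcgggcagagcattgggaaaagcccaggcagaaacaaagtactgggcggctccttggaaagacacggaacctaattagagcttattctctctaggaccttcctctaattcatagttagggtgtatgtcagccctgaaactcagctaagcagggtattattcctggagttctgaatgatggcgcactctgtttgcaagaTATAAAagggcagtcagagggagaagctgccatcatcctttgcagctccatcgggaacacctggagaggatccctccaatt

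A promoter was read for 7 of the 9 genes, with Ttr and Serpina6 not analysed. The HNF1 half-site was present in 4 of the 7, against 7.10% of the 32851 promoter windows of the same length in the table. Its first base lay at -32 from the start in Alb, -52 in Gc, -57 in Serpina7, and at -138 and -73 in Afm, so it occurred in genes that rose as well as in genes that fell. The C/EBP motif was in Alb, Ahsg, Serpina7 and the second start of Rbp4, 4 of 7 against 10.8% of all windows. TATAAA was in 4 of 7 against 13.6%, the HNF4 motif CAAAGTC in 2 against 4.44%, the FOXA motif TNTTTAC in 2 against 12.4%, and the NF-Y motif CCAAT in 6 against 37.4%. TTCNNNGAA was in 0 of the 7, against 8.30% of all windows. Each motif was searched on both strands on its own, so matches of different motifs may overlap, and genes with 2 starts count as holding a motif when either window does. These matches describe letters in the windows and are not evidence of binding.

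Against CT, 5 carriers fell and 4 rose in C26 livers. Alb, Ttr, Rbp4, Serpina6 and Afm fell, with mean levels in CT that were 1.75 (Afm) to 3.49 (Ttr) times those in C26, whereas Serpina7 rose 8.15-fold, Fetub 2.71-fold, Ahsg 1.57-fold and Gc 1.28-fold. All 9 passed an adjusted p of 0.05 in edgeR's quasi-likelihood test (Benjamini-Hochberg over 14785 genes), in a comparison in which 58.1% of all genes tested did so, 28.9% higher and 29.2% lower. The levels of the C26 and CT libraries did not overlap for any of the 9, against 29.5% of all genes tested. The median log2 fold change of the 9 was -0.81, beside -0.0031 over all genes tested. In bulk liver RNA, fewer cells of a type and less RNA per cell cannot be told apart.

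**Figure D1:**
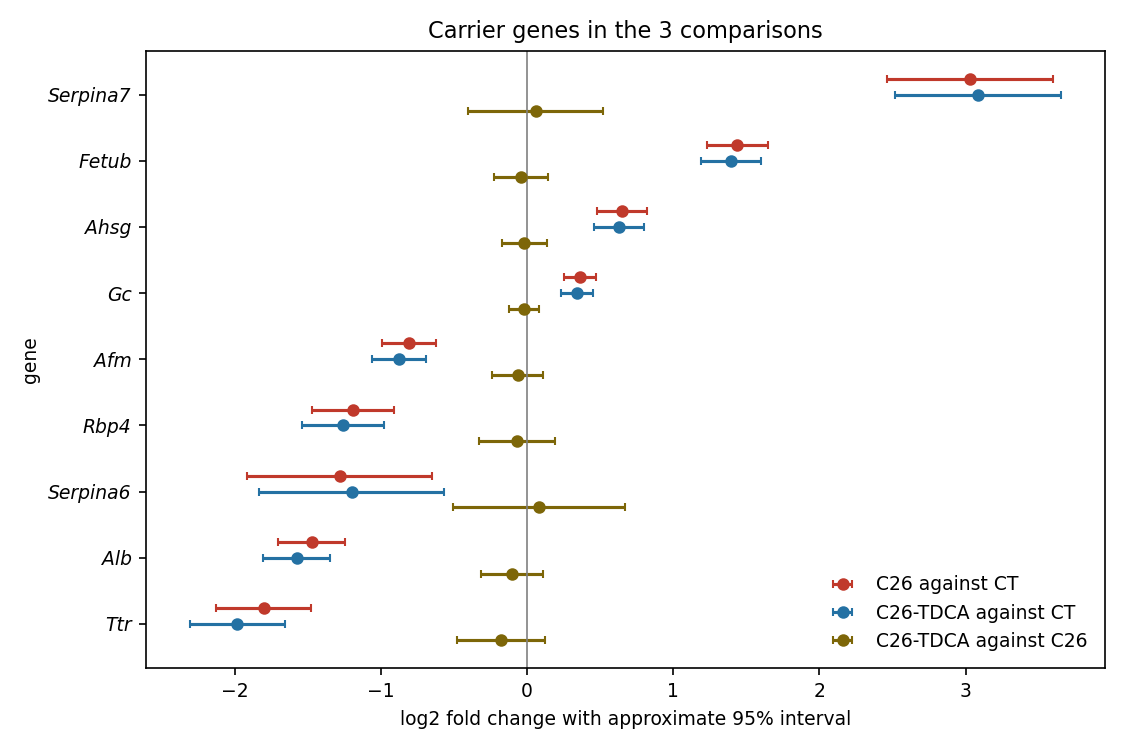
Log2 fold change of each carrier gene (horizontal axis) in C26 against CT and in C26-TDCA against CT, which share the CT libraries, and in C26-TDCA against C26; points are edgeR estimates and bars their approximate 95% intervals. Against CT, Serpina7, Fetub, Ahsg and Gc lie above 0 and the other 5 genes below it, and the 9 values of C26-TDCA against C26 lie between -0.18 and 0.08.

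Total counts per library ran from 16.5 to 25.3 M for CT, from 17.5 to 28.1 M for C26 and from 20.5 to 28.3 M for C26-TDCA, and 3 counts corresponded to 0.106 to 0.182 counts per 1e6 (CPM). Carrier levels are given in CPM after TMM scaling, and the gene with the fewest counts, Serpina7, had at least 204 counts in every library. The 20 most abundant genes took 21.6 to 21.9% of counts in CT, 33.1 to 39.9% in C26 and 34.8 to 39.2% in C26-TDCA, and TMM factors were 1.154 to 1.204 in CT, 0.8783 to 0.982 in C26 and 0.8897 to 1.005 in C26-TDCA. On the first principal component CT libraries lay between -92.7 and -85.0, C26 libraries between 4.01 and 51.5, with C26 2 at 4.01, and C26-TDCA libraries between 22.7 and 46.6. All 12 hepatocyte markers were present, as the label of liver calls for, with a summed level of 25800 to 28300 CPM in CT, 65100 to 85000 in C26 and 66900 to 88600 in C26-TDCA. The fibrinogen genes Fgb and Fgg, which encode positive acute phase proteins, made up 5420 to 7120 CPM of this in CT and 46200 to 67600 in C26, and the other 10 markers summed to 19500 to 22200 CPM in CT, 13500 to 19400 in C26 and 17400 to 23600 in C26-TDCA.

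Alb was the most abundant transcript in every CT library. Its level there was 38900 CPM at the lowest, 42640 at the median and 45530 at the highest. In C26 it was 10470, 15900 and 18100 CPM, and in C26-TDCA 10910, 14110 and 16430. No tumour-bearing liver came near the lowest CT liver, and the gene ranked 10 to 17 among all transcripts in the tumour groups. C26 against CT gave a log2 fold change of -1.47 (SE 0.11, adjusted p = 4.05e-11, edgeR). The lowest C26 livers for Alb were C26 1 and C26 2, at 10470 and 11700 CPM.

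Afm, an albumin-family neighbour of Alb on chromosome 5, fell less. It was at 239.8, 260.1 and 280.3 CPM in CT (lowest, median and highest), at 118.1, 148.8 and 180.0 in C26 and at 110.2, 140.6 and 173.7 in C26-TDCA. The highest tumour-bearing liver, C26 2, stayed below the lowest CT liver, and the log2 fold change in C26 was -0.81 (SE 0.09, adjusted p = 3.75e-08, edgeR). The log2 ratio of Alb to Afm, which does not depend on library scaling, was 7.35 ± 0.10 in CT (SD, n = 6), 6.67 ± 0.33 in C26 (n = 8) and 6.65 ± 0.18 in C26-TDCA (n = 8). Alb thus fell further than Afm in each tumour group, and the ratios of C26 and CT did not overlap (7.23 the lowest in CT and 7.05 the highest in C26).

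Gc, the third albumin-family carrier, went the other way by a small amount. It was at 4824, 4966 and 5127 CPM in CT, at 5915, 6348 and 6978 in C26 and at 5989, 6314 and 6702 in C26-TDCA. Every tumour-bearing liver lay above every CT liver, and mice of 1 group were close together, with a coefficient of variation of 2.67% in CT and 4.84% in C26. The log2 fold change was 0.36 (SE 0.05, adjusted p = 3e-06, edgeR). This rise depended on the scaling: with libraries scaled by their totals and not by TMM, the log2 fold change of Gc in C26 was 0.018 (adjusted p = 0.745), with the median over all genes tested at -0.344. Relative to Gc, Afm fell on either scale, with a log2 ratio of Afm to Gc of -4.26 ± 0.07 in CT (SD, n = 6) and -5.44 ± 0.22 in C26 (n = 8).

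**Figure D2:**
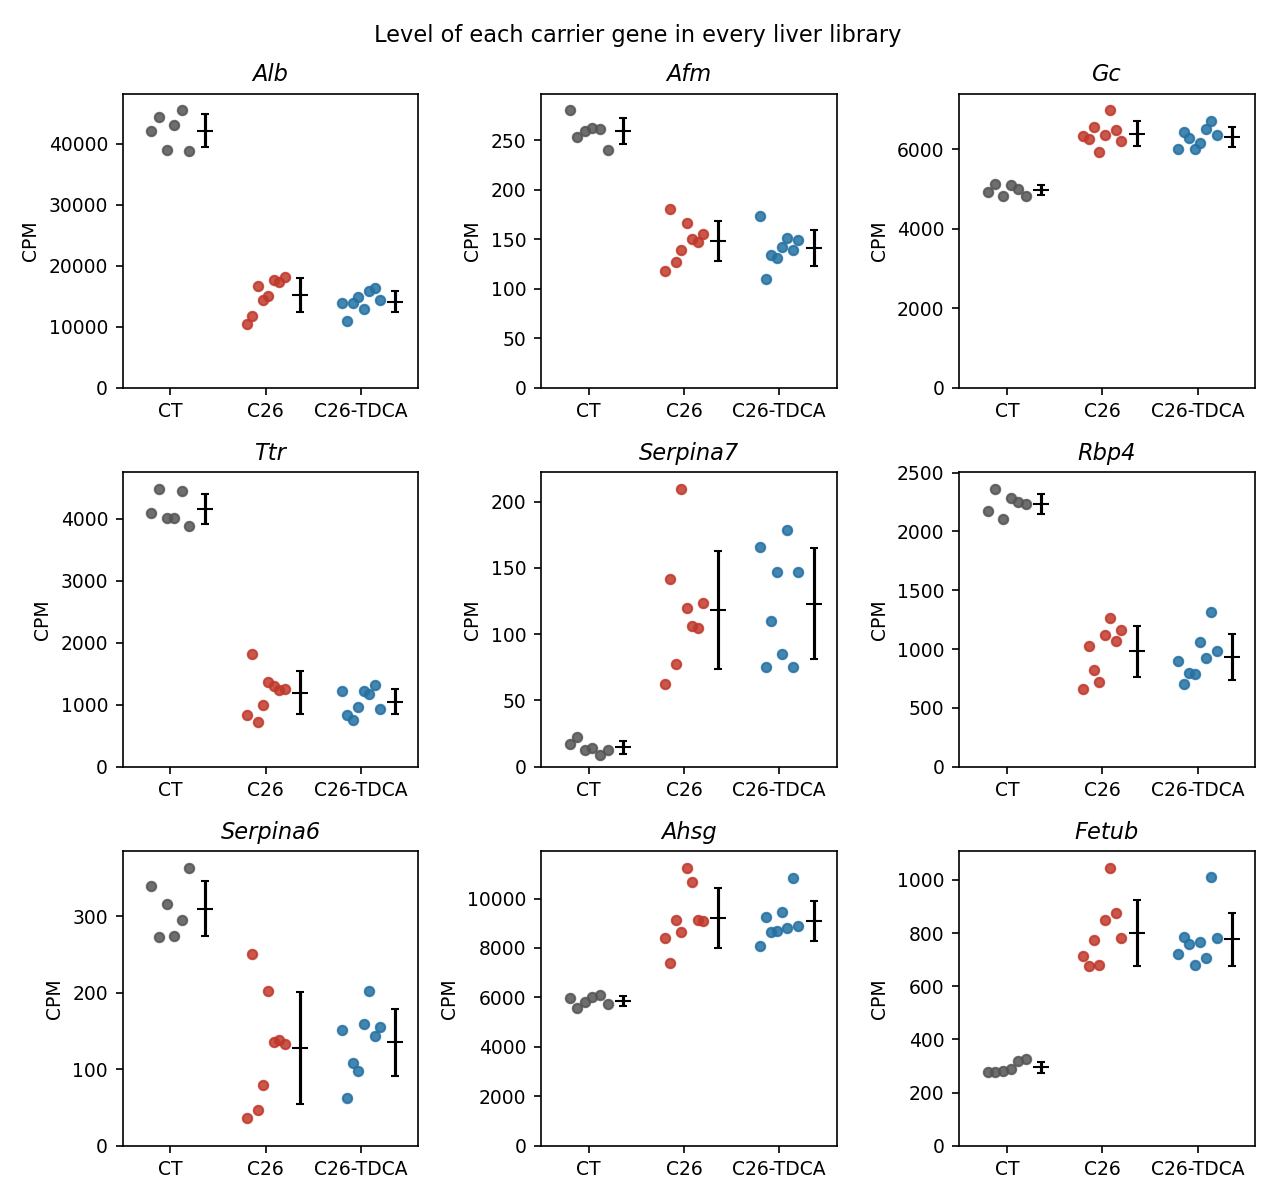
Level of each carrier gene in CPM (vertical axes, each from 0) in every library of CT (6 points), C26 (8) and C26-TDCA (8); the bars beside the points are mean ± SD. For all 9 genes the CT points lie apart from the C26 and the C26-TDCA points, which overlap each other, and Serpina6 has the widest scatter in C26, from 36.2 to 250 CPM.

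The 2 thyroid hormone carriers moved in opposite directions. Ttr, which also holds retinol-binding protein in plasma, was at 3880, 4052 and 4474 CPM in CT (lowest, median and highest), at 717.1, 1246 and 1818 in C26, and at 751.5, 1070 and 1312 in C26-TDCA. It had the largest fall of the 9, with a log2 fold change of -1.80 (SE 0.16, adjusted p = 6.55e-10, edgeR). C26 2 was the highest of the tumour-bearing livers for Ttr and still lay below all CT livers. Serpina7, by contrast, was the least abundant carrier in CT, at 8.70, 13.3 and 22.3 CPM. It reached 62.7, 113 and 209 CPM in C26 and 75.5, 128 and 179 CPM in C26-TDCA, with no overlap with CT. Its log2 fold change was 3.03 (SE 0.27, adjusted p = 1.23e-09, edgeR), and the C26 livers spanned a 3.34-fold range from C26 1 to C26 4. The log2 ratio of Serpina7 to Ttr went from -8.22 ± 0.46 in CT (SD, n = 6) to -3.36 ± 0.48 in C26 (n = 8) and -3.15 ± 0.58 in C26-TDCA (n = 8). Ttr transcripts remained the more abundant of the pair in every tumour-bearing liver.

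Rbp4, the plasma carrier of retinol, fell with its partner Ttr but by less. It was at 2106, 2241 and 2360 CPM in CT, at 658.3, 1049 and 1261 in C26 and at 705.0, 909.8 and 1316 in C26-TDCA. The lowest CT liver was well above the highest tumour-bearing liver, C26-TDCA 7, and the log2 fold change in C26 was -1.19 (SE 0.14, adjusted p = 5.89e-08, edgeR). The log2 ratio of Rbp4 to Ttr was -0.89 ± 0.07 in CT (SD, n = 6), -0.26 ± 0.30 in C26 (n = 8) and -0.17 ± 0.20 in C26-TDCA (n = 8). In C26 2 that ratio was the lowest of its group, at -0.82, inside the CT range of -0.98 to -0.80.

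Serpina6, the glucocorticoid carrier, was the most variable of the 9 among C26 mice. It was at 273.1, 305.6 and 363.1 CPM in CT, at 36.2, 134.5 and 250.4 in C26 and at 63.0, 147.6 and 202.5 in C26-TDCA. Its level in C26 2 was 6.93 times that in C26 1, while the CT livers spanned 1.33-fold. Even C26 2 lay below the lowest CT liver. The log2 fold change was -1.28 (SE 0.31, adjusted p = 0.000941, edgeR) and it was -1.49 without C26 2 and -1.14 without C26 1, with adjusted p values of 0.000122 and 0.000923. The serpins Serpina6 and Serpina7, which carry different hormones, went from a log2 ratio of Serpina7 to Serpina6 of -4.47 ± 0.52 in CT (SD, n = 6) to 0.06 ± 0.81 in C26 (n = 8).

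Both fetuins rose. Ahsg was at 5563, 5910 and 6114 CPM in CT (lowest, median and highest), at 7409, 9105 and 11230 in C26 and at 8095, 8867 and 10840 in C26-TDCA, and its log2 fold change in C26 was 0.65 (SE 0.08, adjusted p = 2.99e-07, edgeR), or 0.30 with library totals (adjusted p = 0.000498). Fetub was at 276.8, 285.5 and 326.4 CPM in CT, at 674.7, 778.1 and 1044 in C26 and at 679.9, 762.4 and 1009 in C26-TDCA, and its log2 fold change in C26 was 1.44 (SE 0.10, adjusted p = 1.1e-11, edgeR). For both genes C26 2 was the lowest C26 liver and still lay above all CT livers. Fetub rose by more than Ahsg: the log2 ratio of Fetub to Ahsg was -4.32 ± 0.11 in CT (SD, n = 6), -3.53 ± 0.13 in C26 (n = 8) and -3.55 ± 0.09 in C26-TDCA (n = 8), without overlap between CT and either tumour group. M21, the GENCODE annotation used here, places an opposite-strand gene over Ahsg (Gm30505, 1.40 to 3.45 CPM on library totals) and over Afm (Gm42109, 0.322 to 2.22 CPM), levels far below those of the carriers. The strand setting of the counting is not given in the sources used here.

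Together the 9 genes took 7.10 ± 0.36% of all counts in CT (SD, n = 6), 3.17 ± 0.34% in C26 (n = 8) and 3.11 ± 0.26% in C26-TDCA (n = 8). Alb accounted for most of the difference, at 4.97 ± 0.31% in CT, 1.41 ± 0.26% in C26 and 1.35 ± 0.18% in C26-TDCA. Without Alb the other 8 took 2.13 ± 0.05%, 1.76 ± 0.12% and 1.76 ± 0.11%. The highest tumour-bearing liver reached 1.97% on this measure, below the lowest CT liver at 2.03%.

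Levels were compared between genes per kb of the longest annotated transcript. In CT the order was Alb (20740 CPM per kb), Ahsg (3956), Ttr (3501), Gc (2760), Rbp4 (1925), Serpina6 (193), Fetub (185), Afm (105) and Serpina7 (6.23). The ranges of Ahsg and Ttr overlapped, as did those of Serpina6 and Fetub, and other neighbours in this order did not. In C26 the order was Alb (7464), Ahsg (6207), Gc (3546), Ttr (1004), Rbp4 (844), Fetub (500), Serpina6 (79.6), Afm (60.0) and Serpina7 (50.7), and C26-TDCA had the same order. Ranges of Alb and Ahsg overlapped in C26, as did those of Ttr with Rbp4, Rbp4 with Fetub, Serpina6 with Afm, and Afm with Serpina7. The ranges of Alb and Ahsg, far apart in CT, thus met in tumour-bearing livers, and thyroxine-binding globulin moved up to the range of afamin.

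**Figure D3:**
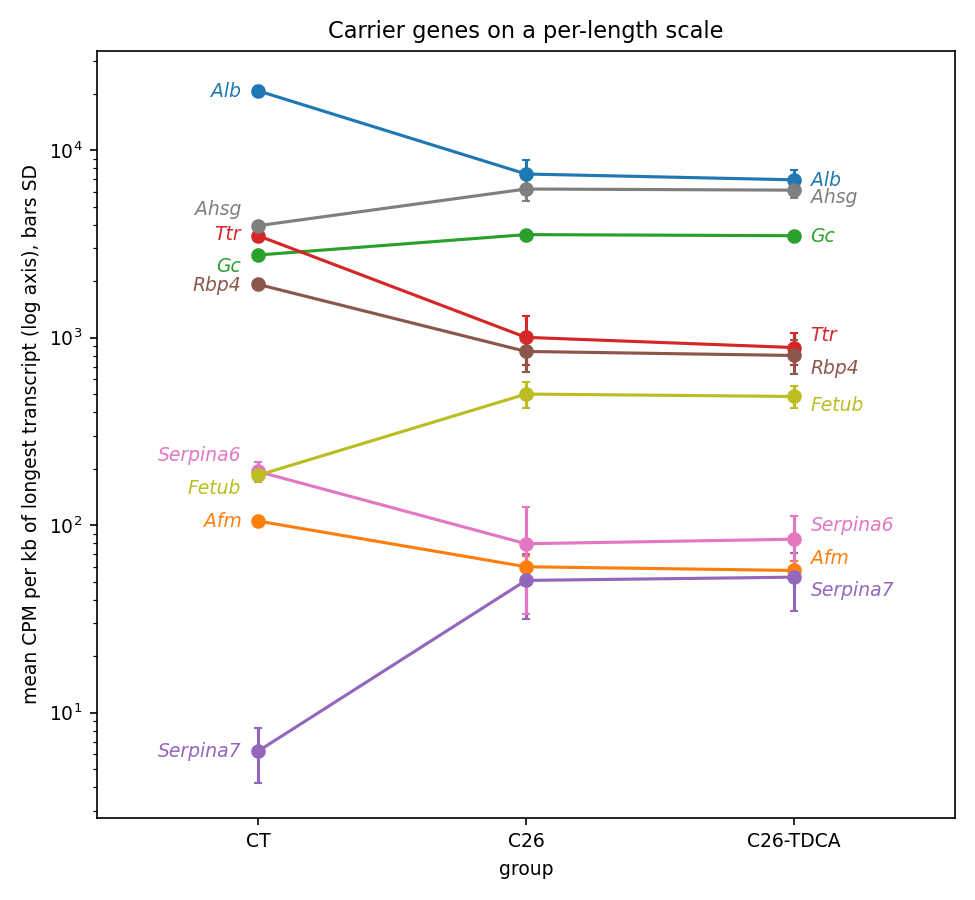
Mean level of each carrier gene per kb of its longest annotated transcript (vertical log axis, CPM per kb) in CT, C26 and C26-TDCA; bars are SD over 6, 8 and 8 libraries and lines join the means of 1 gene. Alb falls from 20740 to 7464 and meets Ahsg, which rises from 3956 to 6207, while Serpina7 climbs from 6.23 to 50.7.

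Several carriers are neighbours in the genome, and some genes around them were chosen by position after values were seen. Other nearest neighbours in the deposited table are not shown. They are Gm9958 (beside Alb), Slc4a4 (Gc), Serpina10 (Serpina6), and Ffar4 and Pde6c (Rbp4). On chromosome 5 (GRCm38), Alb (90460897-90476602) is followed by Afp, the fetal albumin relative, after 14134 bases and then by Afm (90518932-90553543), with Gc (89417522-89457898) farther off on the other side, on the minus strand. Alb and Afm fell while Gc rose. Afp, at 3.75 ± 0.81 CPM in CT (SD, n = 6) and 3.31 ± 0.72 in C26 (n = 8), was not called (log2 fold change -0.18, adjusted p = 0.419, edgeR), nor was 5830473C10Rik beyond Afm (0.15, adjusted p = 0.162). On chromosome 16, where Ahsg (22891277-22899449) and Fetub (22918334-22939778) are separated by 18884 bases, the fetuin genes and 4 neighbours rose in C26, while the antisense gene Gm30505 over Ahsg was not called (0.077, adjusted p = 0.706, edgeR). The log2 fold changes were 1.02 for Dnajb11, 0.65 for Ahsg, 1.44 for Fetub, 1.11 for Hrg, 1.61 for Kng2 and 1.72 for Kng1 (largest adjusted p of the 6, 2.99e-07, edgeR). Of all genes tested 28.9% rose, and whether neighbours of carriers rose more often than other genes was not tested. Hrg and the kininogens Kng1 and Kng2 encode plasma proteins with cystatin-type domains, as the fetuins have, and Dnajb11 encodes a chaperone of the endoplasmic reticulum.

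**Figure D4:**
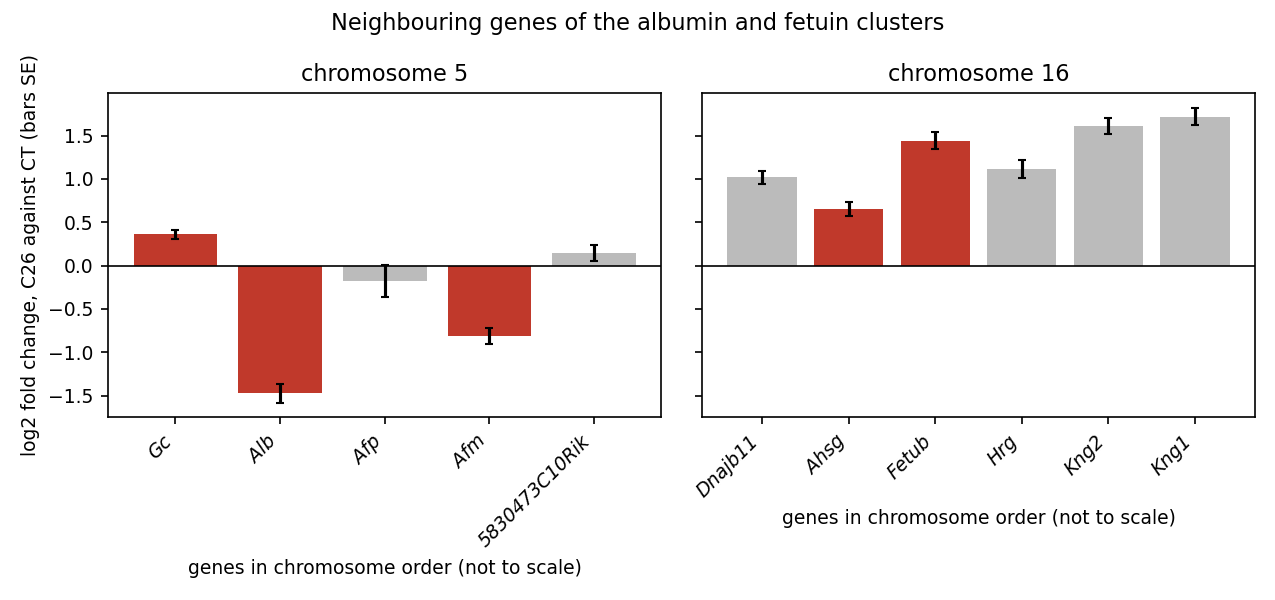
Log2 fold change in C26 against CT (vertical axis, edgeR estimates with SE as error bars) of carrier genes (red) and neighbours (grey) in chromosomal order, on chromosome 5 (left) and chromosome 16 (right). On chromosome 5 Gc lies above 0, Alb and Afm below it and Afp near it at -0.18, and on chromosome 16 all 6 genes lie above 0.

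Some carriers varied together from mouse to mouse. After subtraction of group means from log2 CPM, Pearson's r over the 22 libraries was computed for all 36 pairs, and 8 had an adjusted permutation p under 0.05, all of them positive. The share of such pairs among other genes was not computed, so the count does not show that carriers vary together more than other genes do. The closest pair was Serpina6 with Afm, with r = 0.867 and Spearman's rho = 0.789 (permutation p of 1e-05, the smallest that 100000 resamples can give, and 7e-05, adjusted p of 0.00036 and 0.00252), and r = 0.818 without the 2 libraries farthest from the median of Serpina6. In the groups, r was -0.138 in CT, 0.983 in C26 and 0.836 in C26-TDCA. Ttr with Serpina6 (r = 0.849, rho = 0.807, permutation p = 0.00014 and 0.0007, adjusted p = 0.00252 and 0.0063, r = 0.765 without 2 libraries) and Ttr with Afm (r = 0.768, rho = 0.719, permutation p = 0.00041 and 0.00134, adjusted p = 0.00432 and 0.00882, r = 0.691 without 2) were the other pairs of 3 carriers that fell. For Ttr with Serpina6, r was -0.623 in CT, 0.957 in C26 and 0.669 in C26-TDCA, and for Ttr with Afm it was 0.170, 0.947 and 0.575. The fetuins Ahsg and Fetub formed another pair (r = 0.781, rho = 0.758, permutation p = 0.00048 and 0.00032, adjusted p = 0.00432 and 0.00576, r = 0.835 without 2). Ttr with its plasma partner Rbp4 gave r = 0.727 (rho = 0.807, permutation p = 0.00245 and 0.00052, adjusted p = 0.0126 and 0.00624, r = 0.83 without 2), and Rbp4 with Serpina6 r = 0.732 (rho = 0.778, permutation p = 0.00206 and 0.00147, adjusted p = 0.0124 and 0.00882, r = 0.717 without 2). The latter was -0.592 in CT, 0.806 in C26 and 0.671 in C26-TDCA, so that Serpina6 with Afm, Ttr and Rbp4 had negative r in the 6 CT livers and positive r in both tumour groups, a difference that was not tested.

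Gc with Fetub and Rbp4 with Fetub passed by r and not by rank. The r values were 0.683 and 0.662 (permutation p = 0.00188 and 0.00444, adjusted p = 0.0124 and 0.02), but those of rho had adjusted p of 0.112 and 0.0812, and r without 2 libraries was 0.486 and 0.537. Serpina7 with Fetub had the lowest r, -0.458 (permutation p = 0.0463, adjusted p = 0.119). C26 2 was the highest C26 liver for Ttr, Serpina6 and Afm, the lowest for Ahsg and Fetub, and the lowest on the first principal component. Without it, 10 of the 36 pairs passed, and Serpina6 with Afm gave r = 0.837 over 21 libraries (adjusted permutation p = 0.00072). These libraries share the scaling of their depth, and with library totals in its place 9 pairs passed. Gc with Fetub was then at r = 0.186 (adjusted permutation p = 0.542), and Serpina7 with Afm (r = 0.652, adjusted p = 0.0105) and Alb with Gc (r = 0.567, adjusted p = 0.0165) passed. Ahsg with Fetub gave r = 0.665 (adjusted permutation p = 0.0219), with an adjusted p of 0.0649 for rho.

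**Figure D5:**
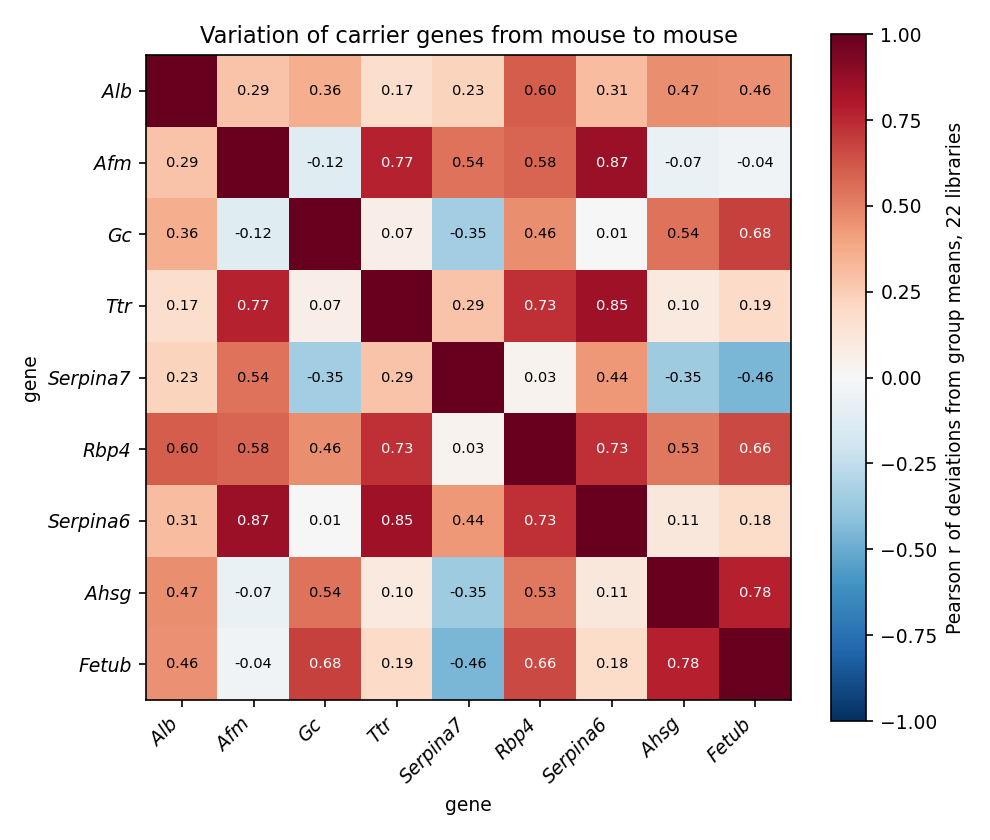
Pearson's r between carrier genes (rows and columns) of log2 CPM after subtraction of the group means, over 22 libraries. Serpina6 with Afm (0.867) and Ttr with Serpina6 (0.849) are the highest, Ahsg with Fetub is at 0.781, and Serpina7 with Fetub is the lowest at -0.458.

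For each carrier, the genes that followed it most closely across the 22 libraries on the same measure were taken from 7534 genes with a mean of at least 10 CPM, as a description. The closest to Ttr were Tm7sf2 (r = 0.965), Slc25a1 (0.963) and Pebp1 (0.963), the first an enzyme of cholesterol synthesis and Slc25a1 the mitochondrial citrate carrier. The closest to Serpina6 were Acsm1 (0.965), Sult2a8 (0.944) and Akr1c6 (0.938), and Afm followed Nit2 (0.928), Bbox1 (0.918) and Slc22a7 (0.916). Those nearest to Gc included F2 (0.890) and F10 (0.869), the genes of prothrombin and coagulation factor X, and Rbp4 was nearest to Proc (0.937), which encodes protein C. Alb was nearest to Hsd17b13 (0.869), Ahsg to Chchd10 (0.860), Fetub to 2410015M20Rik (0.907) and Serpina7 to 5031439G07Rik (0.813).

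C26-TDCA livers gave carrier levels close to those of C26 livers. None of the 9 was called in C26-TDCA against C26, and 0 had an unadjusted p under 0.05 in edgeR. DESeq2 called 0 of the 9 as well. Of all genes tested edgeR called 1.97%, 1.73% higher and 0.237% lower, and the groups overlapped for every carrier (0.149% of all genes did not overlap). Log2 fold changes ran from -0.18 for Ttr (SE 0.15, adjusted p = 0.593, edgeR) to 0.08 for Serpina6 (SE 0.29, adjusted p = 0.927). The 95% interval of the difference was -0.48 to 0.12 for Ttr, -0.31 to 0.11 for Alb, -0.12 to 0.08 for Gc and -0.23 to 0.14 for Fetub, so that a log2 change of Gc beyond these bounds lies outside its interval. For Serpina6 it was -0.51 to 0.67 and for Serpina7 -0.40 to 0.52, so differences within these wider bounds are not excluded. The size of a detectable difference was not computed.

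Beside CT, which both comparisons share, the values for C26-TDCA were 3.09 for Serpina7, 1.40 for Fetub, 0.63 for Ahsg, 0.34 for Gc, -0.88 for Afm, -1.20 for Serpina6, -1.26 for Rbp4, -1.58 for Alb and -1.98 for Ttr (log2 fold change). All 9 were called there, against 57.0% of genes tested (28.7% higher and 28.2% lower), with adjusted p of at most 0.00174 in edgeR, and none overlapped with CT, against 31.6% of genes tested.

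Other secreted carriers of plasma moved in both directions in C26 against CT. Of 24 tested, 13 rose, 5 fell and 6 were not called, with a median log2 fold change of 0.34, and with library totals in place of TMM 11 rose, 11 fell and the median was -0.0057. Of all genes tested 28.9% rose and 29.2% fell, and with library totals 2292 of 14785 rose and 7872 fell. The haem carrier hemopexin (Hpx) rose from 2430 ± 193 CPM in CT (SD, n = 6) to 42000 ± 8000 in C26 (n = 8), haptoglobin (Hp) from 1660 ± 105 to 32900 ± 5360, and the orosomucoid Orm1 from 549 ± 46.2 to 9890 ± 1720, all positive acute phase proteins. Orm2 rose from 4.36 ± 2.08 to 1890 ± 233 CPM. Of 10 tested genes of cystatin-type and inter-alpha-inhibitor proteins, the wider kin and partners of the fetuins, 8 rose, 1 fell and 1 was not called (median 1.08). Itih4 and Itih3, of the inter-alpha-trypsin inhibitor heavy chain family, had log2 fold changes of 4.02 (SE 0.08, adjusted p = 2.46e-22, edgeR) and 3.99 (SE 0.10, adjusted p = 2.8e-20).

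Genes that handle the carried hormones and vitamins changed in both directions in C26. Of all genes tested, 28.9% rose and 29.2% fell, with a median log2 fold change of -0.0031. With library totals 2292 of 14785 rose and 7872 fell, with a median of -0.344. The lists below were not tested against these shares. Of 16 thyroid hormone genes 9 fell and 2 rose (median log2 fold change -0.49), and with library totals 11 fell and 1 rose (median -0.83). The organic anion transporters Slco1a4 (-3.20), Slco1a1 (-4.20) and Slco1b2 (-1.19) and the thyroid hormone-binding protein Crym (-1.22) fell, in contrast to Serpina7. Of 18 glucocorticoid genes 10 fell and 3 rose (median -0.50), as many as with library totals (median -0.83). Those that fell included Hsd11b1, which regenerates active glucocorticoid (-1.33), the receptor gene Nr3c2 (-1.35), the co-chaperone Fkbp4 (-1.02) and the steroid reductase Srd5a1 (-2.90). The 3 that rose were Sgk1 (1.97), Tat (1.34) and H6pd (0.98). Of 25 retinoid genes 13 fell and 9 rose (median -0.37), and with library totals 14 fell and 6 rose (median -0.71). Among those that rose were Aldh1a3 (3.12), Stra6l (1.52), a liver receptor for the retinol that Rbp4 carries, and Bco1 (0.86). Aldh1a3 was low, at 0.554 CPM on average in CT and 4.78 in C26. Among those that fell were Aldh1a1 (-0.94, from 1020 to 534 CPM), Rdh16 (-1.27), Dhrs3 (-0.85) and Rdh7 (-0.55). Of 5 vitamin D genes 3 fell and 1 rose (median -0.38, and -0.72 with library totals), among them Cyp27a1, a vitamin D and sterol hydroxylase, at -1.21. The gene that rose, Dhcr7 (0.46, adjusted p = 0.0385, edgeR), was at 0.12 (adjusted p = 0.589) with library totals.

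Receptors and partners that take up, recycle or bind carriers rose in C26 in 10 of 12 cases, against 28.9% of all genes tested. The median log2 fold change was 0.70 and 1 gene fell. With library totals 7 rose, 2 fell and the median was 0.36. The recycling genes Fcgrt and B2m did not rise. Fcgrt was not called (-0.06, adjusted p = 0.596, edgeR) and B2m fell (-0.42, adjusted p = 0.000404). Lrp1, a large endocytic receptor, rose from 804 ± 92.2 CPM in CT (SD, n = 6) to 2270 ± 198 in C26 (n = 8), and the log2 fold change was 1.16 for Gpr182, 1.28 for Cd36 and 0.91 for Sparc. Of 22 genes of factors listed as possible activators of Alb, a role not tested here, 10 rose, 10 fell and 2 were not called (median -0.19). With library totals 5 rose and 12 fell, beside 2292 and 7872 of all 14785 genes tested. The counts of this list are not a result about these factors. Cebpd (2.55), Xbp1 (1.10) and Foxa3 (0.84) rose, and Hlf (-1.41), which binds the same site as DBP, fell. Against C26, 2 genes of these 8 lists were called in C26-TDCA: Onecut2 (0.39, adjusted p = 0.0377) and the glucocorticoid receptor gene Nr3c1 (0.37, adjusted p = 0.0395), both in edgeR. That is 1 of the 22 listed factor genes, 1 of the 18 glucocorticoid genes and none of the other lists, beside 1.97% of all genes tested. The count is therefore not a result about these lists. In a fit of the C26 and C26-TDCA libraries alone the log2 fold changes were 0.39 and 0.37, with adjusted p of 0.0907 and 0.0853. In C26 against CT, Onecut2 (-0.31, adjusted p = 0.0154) and Nr3c1 (-0.86, adjusted p = 6.88e-08) were lower in edgeR. In C26-TDCA against CT, Nr3c1 was still lower (-0.49, adjusted p = 0.000151) and Onecut2 was not called (0.08, adjusted p = 0.52, edgeR).

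Many markers of other liver cells were higher in C26 beside these changes, in a comparison in which 28.9% of all genes tested were higher. The 10 Kupffer cell markers all rose, with a summed level of 251 to 298 CPM in CT and 430 to 653 in C26. Monocyte and neutrophil markers rose in 7 of 8 (2.41 to 6.57 CPM in CT and 19.6 to 51.0 in C26), endothelial markers in 8 of 10 (262 to 326 and 342 to 605) and stellate cell markers in 7 of 10 with 1 lower (218 to 291 and 314 to 497). Of the cholangiocyte markers 3 of 7 rose (24.6 to 39.0 and 245 to 772 CPM in sum). Spp1 made up most of that sum, at 18.8 CPM on average in CT and 411 in C26. The defining Krt19, Krt7 and Epcam were not called, at 0.879, 0.581 and 1.19 CPM in CT and 0.748, 0.568 and 1.23 in C26. Of erythroid markers 5 of 7 rose and 2 fell (248 to 307 and 169 to 669 CPM). Hepatocyte markers themselves were mixed, with 6 of 12 higher, 5 lower and 1 not called. With library totals 3 hepatocyte, 9 Kupffer, 6 endothelial and 4 stellate cell markers were higher, and 6, 0, 2 and 1 were lower. Of all 14785 genes tested, 2292 were then higher and 7872 lower. For adipocytes and the choroid plexus, which express Rbp4 and Ttr, only 1 marker each of 6 was among the genes of the deposited table. Adipoq, Lep, Retn, Plin1 and Cfd were absent from it, as were Kl, Folr1, Clic6, Kcnj13 and Otx2. Fabp4 was at 5.49 CPM on average in CT and 11.3 in C26, and Enpp2 at 96.1 and 60.0. A single marker cannot show whether such cells were present. The part of these cells in the carrier levels was not tested.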

How the data were processed

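The design text presents the 22 liver samples as different mice. Raw gene-level read counts, not normalized, are what the authors deposited, and they entered the tests unchanged. Per the submitters' processing notes, tools included HISAT2 2.2.1 and featureCounts 2.0.3, besides Trimmomatic 0.40, with genome build GRCm38; the annotation release is not given in the sources used here. Columns were assigned to mice by name. No pair of libraries of a group agreed within sampling noise (chi-square per degree of freedom of at least 11).

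Counts were tested with edgeR 4.0.16 in R 4.3.3: filterByExpr with a minimum count of 10 (14785 genes kept, 663 removed), TMM scaling, 1 model with a mean per group over the 22 libraries, the quasi-likelihood F test, and Benjamini-Hochberg adjustment over all genes tested at 0.05. Standard errors are approximate, obtained by dividing the size of each log2 fold change by the root of its F value, and the 95% intervals use them. Depth was 16.5 to 28.3 M counts per library. Correlations used log2 CPM with a prior count of 2 and 100000 permutations within groups, two-sided. Symbols, lengths and positions are from GENCODE M21 (15443 of 15448 identifiers matched). The script was tested on simulated data. Alternatives were DESeq2 1.42.0, its size factors, upper-quartile scaling, library totals, no filter, the 2 groups alone, voomWithQualityWeights of limma 3.58.1, a replicate block, a length and GC trend removed, and each library left out.

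The members and the gene lists were chosen with earlier results of these data known. Named genes were the 9 carriers, up to 4 called members of each of 8 lists by p in C26 against CT, any list gene called in C26-TDCA against C26, and the 3 genes most like each carrier. Chromosomal neighbours, marker genes and some further list genes that went the other way were named outside this rule, after values were seen. The correlations without C26 2 and the marker sum without Fgb and Fgg were also added after the data were seen. Sequences and coordinates of Ttr, and some of the genes that the rule names, are not reported here.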

Additional observations from a re-analysis of the deposited data

Results flagged for a closer look

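The level of each of the 9 carriers was checked in each of the 3 groups for a sample far from the others, 27 checks in all, and 1 was found. Fetub in C26-TDCA 7 was at 1010 CPM, the highest of its 8 libraries, with the next at 783 CPM. The gap was 0.686 of the whole range of the group, above Dixon's 95% critical value of 0.526. Chance alone marks about 1 in 20 such groups. C26-TDCA 7 was also the highest of its group for Alb, Ttr, Rbp4, Gc and Ahsg, without passing the same limit.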

How the results depend on the processing

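All 9 carriers were called in C26 against CT and in C26-TDCA against CT, and 0 of 9 in C26-TDCA against C26, under every alternative run, except that Gc was not called with library totals in place of TMM (log2 fold change 0.018 and 0.034, adjusted p = 0.745 and 0.537, against CT in C26 and C26-TDCA). That scaling moved the median of all genes tested to -0.344 in C26 and -0.297 in C26-TDCA against CT, and the share of called genes that were higher from 49.7% to 22.6% and from 50.4% to 24.7%. The log2 fold change in C26 against CT ranged from 1.09 to 1.51 for Fetub, 0.30 to 0.72 for Ahsg, -1.82 to -1.40 for Alb and -1.62 to -1.14 for Serpina6 over 24 settings. The number of genes called in C26-TDCA against C26, 291 of all tested, was 45 with the 2 groups alone, 785 without C26 1 and C26-TDCA 8, 554 in DESeq2, 468 in voomWithQualityWeights and 23 after removal of the trend of length and GC, and 59 to 594 with 1 library left out (594 without C26 1 and 59 without C26-TDCA 4). With that trend removed, 60.9% of the called genes were higher, in place of 88.0%. The 2 list genes called there became 1 with the replicate block, 0 with the 2 groups alone, 0 with the trend removed and 0 to 2 with 1 library left out; Onecut2 then stood at -0.014 with the trend removed. The cause was not tested. Deviations of same-numbered libraries correlated at a median of 0.0156 over 20 pairs (-0.204 to 0.337), beside -0.00556 over 140 other pairs (-0.249 to 0.34). Of the 20 pairs, 6 were above 0.1, the highest being C26 3 with C26-TDCA 3 (0.337) and C26 4 with C26-TDCA 4 (0.212). Of the 22 libraries, 6 correlated best with their own number. Replicate numbers were not treated as pairs in the main fit, and these values cannot exclude a pairing of the tumour groups. With the number as a replicate block, 9, 0 and 9 carriers were called, and 8282, 280 and 8017 of all genes. Depth was not limiting for the carriers, whose lowest count was 204.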
